A study of Drosophila melanogaster with 63 samples.

Results

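The 10 genes described here encode subunits of the nucleosome remodelling factor NURF and other chromatin remodellers of Drosophila melanogaster. They are E(bx), Iswi, Nurf-38, Caf1-55, Acf, Chrac-14, Chd1, Chd3, Ino80 and brm, chosen by name from 13922 protein-coding genes. A peak was counted for a gene when it touched the annotated gene span or the 500 bp on either side, and 246 of 190933 called peaks did so for the 10 genes. Chromatin immunoprecipitation followed by sequencing (ChIP-seq) had been done in Kc167, a female cell line from embryos, kept at 25°C. For knockdown of the proteins NURF301, CP190 or Su(Hw), cells had been transfected with 5 ug of dsRNA, a double-stranded RNA that targets the transcript of Nurf301, Cp190 or su(Hw), and were taken after 4 days. They stand against mock-treated cells, which the titles split into a mock and a mock2 series without saying how these differ. Antibodies against NURF301, CP190 and Su(Hw) were used in these cells, except that no Su(Hw) list of CP190 knockdown cells was analysed here. An antibody against Mod(mdg4)67.2 was used in the mock series alone, and one against GFP in a derived Kc line that expresses a Mod(mdg4)-GFP fusion. Each group had 3 peak lists, 1 per library, except the CP190 knockdown with 2 for each antibody. All groups come from Kc167 or that derived line, and nothing in the labels says that replicates are separate cultures, so p-values measure only the spread between these libraries.

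Remodellers use ATP to slide, evict or exchange nucleosomes, and so open or close the DNA at promoters and other regulatory sites. NURF consists of the large subunit NURF301, which reads histone marks and contacts transcription factors, the ATPase ISWI and smaller subunits. Su(Hw) is a zinc finger protein that binds the gypsy insulator, where it recruits CP190 and Mod(mdg4)67.2. Insulators block the action of an enhancer on a promoter when they lie between them, and CP190 also sits at many promoters without Su(Hw). The labels give the purpose of the study as the overlap of NURF301 with these proteins and its dependence on them. E(bx) has a place of its own among the 10 genes, because it encodes NURF301 itself, the target of a knockdown and of an antibody.

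The lists of the knocked-down protein were short. After NURF301 knockdown the NURF301 lists held 253, 3 and 25 peaks, against 4612 to 8234 in the 6 mock lists. CP190 lists held 1207 and 1286 peaks after CP190 knockdown, against 5990 to 10578 in mock cells, and Su(Hw) lists 74, 77 and 97 after Su(Hw) knockdown, against 3993 to 5360. The other knockdown lists were shorter than the mock lists as well, with 1819 to 2027 NURF301 peaks and 3691 to 4231 CP190 peaks after Su(Hw) knockdown, 4091 to 5465 CP190 peaks and 2625 to 3540 Su(Hw) peaks after NURF301 knockdown, and 4404 and 4577 NURF301 peaks after CP190 knockdown. No source used here gives read numbers, and list length is no direct measure of depth, since it also depends on how much protein is bound. The median −log10 q of CP190 lists was 58.8 to 153 in mock cells and 21.7 to 34.5 after NURF301 knockdown. For NURF301 it was 30.9 in mock replicate 3, 26.1 in mock2 replicate 2 and 80.6 to 89.5 in the other mock lists. What part depth has in the counts below was not tested, apart from the reduction of the mock lists given with them. The first NURF301 list of the NURF301 knockdown stands apart from the other 2, and results on NURF301 after its knockdown are given with and without the first. Of the 6 NURF301 mock lists, 3 were more alike than replicates of other groups: mock replicate 2 and mock2 replicates 1 and 3 shared between 39.8% and 65.6% of their peak summits to the base, pair by pair. In the other 185 pairs of lists of 1 antibody with at least 500 peaks each, the share was 0.330% to 9.33%. The highest of these were mock replicate 1 with each of the same 3 lists, at 8.53% to 9.33%, and the next pair had 4.08%. With mock replicate 1 also joined to the 3, no NURF301 site could be called, since 3 lists against 3 cannot give an exact p below 0.1. No pair of the 3 files was identical, and whether they hold the same reads was not tested, since the lists give no read counts. Each NURF301 test is therefore also given with the 3 counted as 1 list, which had a peak where at least 2 of them had one.

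In mock cells all 10 genes carried NURF301. Each had a NURF301 peak in all 6 mock lists, where 44.3% of all protein-coding genes did. The peaks merged into 12 sites of 514 to 1828 bp. Every site reached to within 500 bp of an annotated end of its gene, which is called here at an end. Summits could lie deeper: at Acf those of the strongest NURF301 peaks were 661 to 716 bp from the nearest end in the mock lists. CP190 had a site, meaning peaks in 4 or more of the 6 mock lists, at 9 of the 10 genes, against 57.0% of all genes. The tenth, Chd1, had CP190 peaks in the 3 lists of the mock series and in none of the mock2 series. Su(Hw) had a site at Acf and Ino80 alone, 20% of the genes described against 15.5% of all genes. Mod(mdg4)67.2 had a site at the same 2 genes in at least 2 of its 3 lists, against 9.73% of all genes, and GFP at Acf in 2 of 3 lists, against 9.54%. A list of 29 further remodeller genes, from Brahma-complex subunits such as mor and osa to the helicases dom and XNP, was counted the same way: 29 had a NURF301 site, 28 a CP190 site and 2, tou and Hel89B, a Su(Hw) site. The plot of all 46 lists shows how the 10 genes divide between proteins and treatments.

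**Figure D1:**
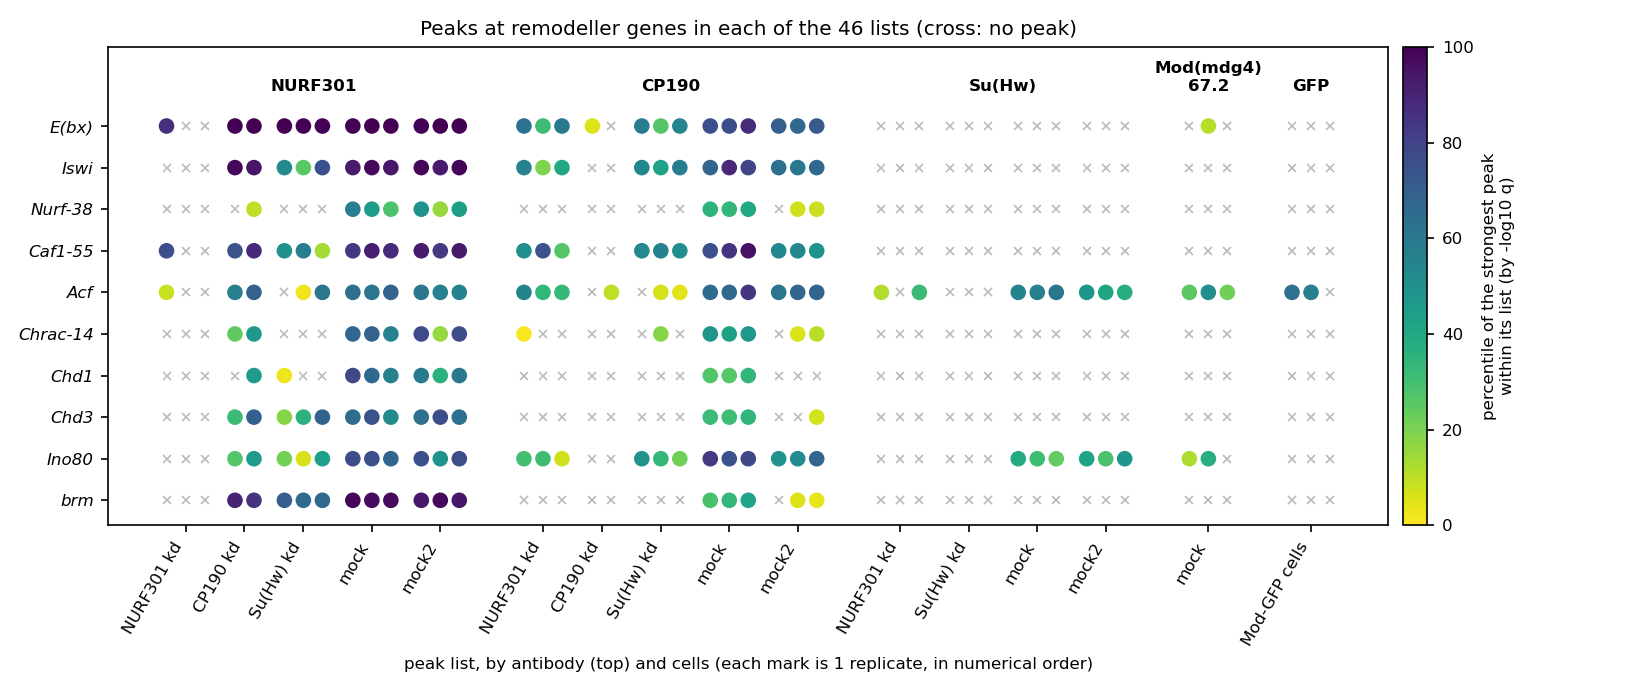
Each column is 1 peak list, grouped by antibody (top) and by cells (bottom), and each row 1 gene. A dot is a called peak, coloured by the percentile of the strongest one within its own list by −log10 q, and a cross is no peak. NURF301 dots fill all 6 mock columns, CP190 dots are sparser, and Su(Hw), Mod(mdg4)67.2 and GFP dots stand almost entirely at Acf and Ino80.

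The strength of a peak was read only within its list, as the percentile of its −log10 q among all peaks of that list, since ranks from lists of different length are not comparable. Of the NURF subunits, E(bx) had the strongest NURF301 peak of the 10 genes in each of the 6 mock lists. This site lay at 3L:246215-248042, at the higher-coordinate end of E(bx) and within 500 bp of the neighbouring gene mthl14, and its mock summits were 35 to 65 bp from the annotated gene end. The fold enrichment that the authors' caller gave for it was 10.6, 10.8 and 32.8 in the mock lists and 13.7, 13.0 and 15.9 in the mock2 lists. By −log10 q it ranked 44, 29 and 5 in the mock lists and 39, 1 and 16 in the mock2 lists. Over the 6 lists its percentiles were 99.5 to 100.

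Iswi, the ATPase that NURF shares with the ACF and CHRAC remodellers, had its NURF301 site at 2R:12635650-12637014, at percentiles of 92.7 to 99.0 over the mock lists and with summits 2 to 15 bp from the gene end. Caf1-55, a WD40 histone-binding protein that NURF shares with the chromatin assembly factor CAF-1 and with Polycomb complexes, followed with 83.0 to 93.1 at 3R:15225040-15225972. Nurf-38, an inorganic pyrophosphatase and the smallest NURF subunit here, stood low, at 15.6 to 58.2 at 2R:24560739-24561891. Of the 4 NURF subunit genes, then, 3 carried NURF301 peaks at a percentile of 83.0 or more in every mock list, and Nurf-38 was at 58.2 or less in each.

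The genes of other remodellers spread over the same range. The site of brm, the SWI/SNF ATPase Brahma, at 3L:15982554-15983436 had percentiles of 93.8 to 98.7. Ino80, the ATPase of the INO80 complex, had 48.7 to 76.6 at 3R:19402850-19403749. Chrac-14, a histone-fold subunit of CHRAC, had 55.6 to 77.7 in 5 mock lists and 16 in mock2 replicate 2, at 2L:8437018-8437958. For Chd3, an ATPase of the CHD family related to Mi-2, they were 51.7 to 76.7 at 3L:19446077-19447532. At Acf, whose product partners ISWI in ACF and CHRAC, they were 55.6 to 68.4 at 3R:31793404-31795012. Chd1, a CHD ATPase associated with transcribed genes, had 36.1 to 78.3 at its higher-coordinate end, 2L:2987342-2988360. Peaks at Chd1 and Chrac-14 also formed a second, weaker site each. Every one of these sites touched the 500 bp window of at least 1 neighbouring gene, so a peak cannot be given to the remodeller gene rather than to its neighbour.

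**Figure D2:**
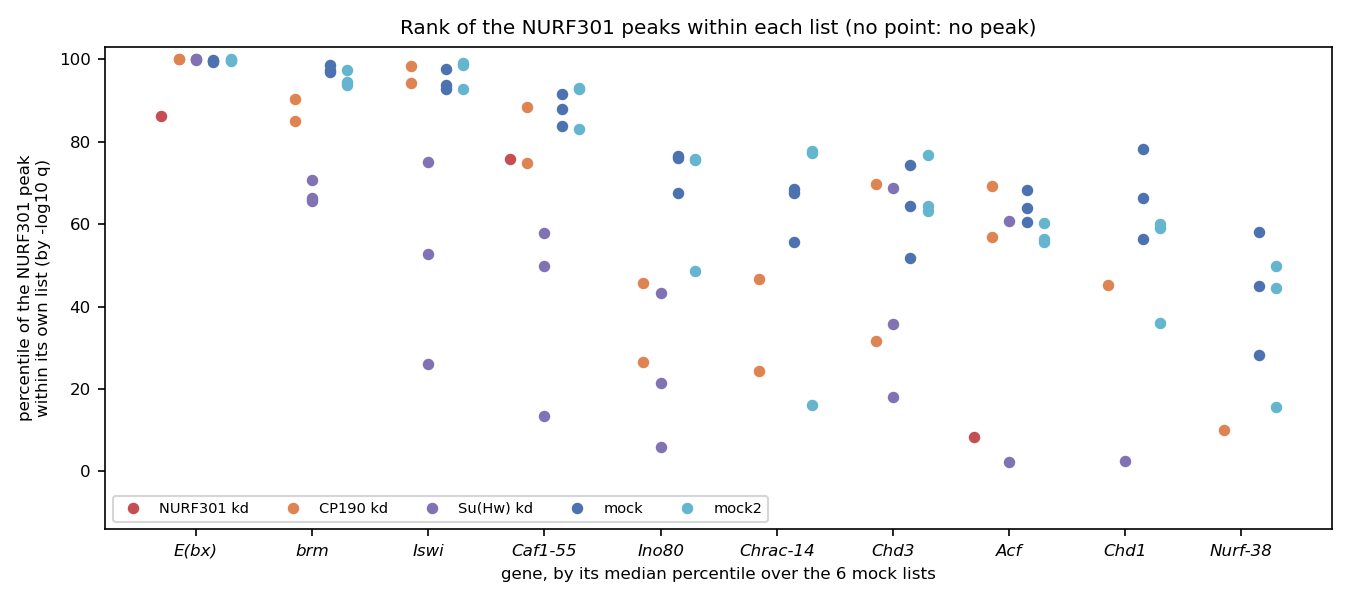
The percentile of each NURF301 peak within its own list (vertical axis, by −log10 q) is plotted for each gene, ordered by its median over the 6 mock lists, with 1 point per list that has a peak and the strongest site where a gene has several. E(bx) lies at 99.5 to 100 in mock, CP190 knockdown and Su(Hw) knockdown lists. In the NURF301 knockdown only E(bx), Caf1-55 and Acf have a point, all from list 1.

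CP190 sites reached the same gene ends. Of its 14 sites at the 10 genes, 12 were at an end by the same 500 bp measure and 2 inside, in Ino80 and brm. Mock summits of the end sites were 606 to 653 bp from the nearest end at Acf, 462 to 491 bp at Nurf-38 and 461 to 475 bp at Chd3. The E(bx) site, at 3L:246547-248621, had percentiles of 76.4, 76.7 and 87.8 in the CP190 lists of the mock series and 70.6, 66.6 and 72.5 in those of the mock2 series. At E(bx), Iswi, Caf1-55, Acf and the end site of Ino80 the median percentile over the 6 mock lists was 74.5, 67.4, 64.5, 67.2 and 66.8. At Chrac-14, Nurf-38, Chd3 and the end site of brm the median over the mock lists with a peak was 43.0, 34.1, 31.5 and 29.2. These 4 genes and Chd1 had no CP190 peak in the shortest mock list, mock2 replicate 1 with 5990 peaks. The 2 mock series differed here: the mock lists had a CP190 peak at 10, 10 and 10 of the 10 genes, and the mock2 lists at 5, 8 and 9.

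After NURF301 knockdown most of the 10 genes had no NURF301 peak. One was called at 3, 0 and 0 of them in the 3 knockdown lists, against 10 in each of the 6 mock lists. Of all genes 3.01%, 0% and 0.172% had a NURF301 peak in these knockdown lists, against 45.4% to 60.4% in the mock lists. For each site the numbers of lists with and without a peak went into a two-sided Fisher's exact test, with Benjamini-Hochberg adjustment over every site of the genome whose number of peaks could reach 0.05, and was called lost at an adjusted p under 0.05. A site with a peak in all mock lists could reach 0.05 only if no knockdown list had one. Such sites that kept a peak in any knockdown list were left out, here and in the comparisons below. The share of tested sites lost is therefore not a rate of loss. Of the 9 sites tested at the 10 genes, 7 were lost, beside a genome-wide 51.6% of the tested sites. These were the sites of Iswi, Nurf-38, Chd3, Ino80 and brm, the stronger one of Chrac-14 and that at the higher end of Chd1, each with a peak in 0 of 3 knockdown lists and 6 of 6 mock lists (exact p = 0.0119, adjusted p = 0.0231). With the 3 alike mock lists counted as 1, 7 of 8 tested sites were lost (lowest exact p of 3 lists against 4, 0.0286, adjusted p = 0.0372), beside 3899 of 5080 in the genome. Of the further remodeller genes 27 of 29 held a lost site, 31 of 53 distinct sites tested, beside the same 51.6%.

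E(bx), Caf1-55 and Acf kept a NURF301 peak in list 1 of the NURF301 knockdown and in neither of the other lists, against 6 of 6 mock lists (Fisher's exact p = 0.0833 each, not reaching the adjusted test). In that list the E(bx) peak was 177 bp wide with a fold enrichment of 6.97 and ranked 36 of 253. The Caf1-55 peak had 7.40 and ranked 62, and the Acf peak had 5.34 and ranked 233. Without list 1, no gene of the 10 had a NURF301 peak after knockdown, and all 10 sites tested were called lost, beside 91.4% of the 4518 tested in the genome. Of all genes with a NURF301 mock site, 94.8% had no peak in any knockdown list, against 7 of the 10. When each mock list was reduced to its strongest peaks, as many as the median NURF301 knockdown list held, the mean number of the 10 genes with a peak was 1 after knockdown and 0.5 in mock. Only 1 site at the 10 genes could then be tested, and it was not called lost, nor was any of the 18 tested in the genome.

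CP190 stayed at the same 5 genes in all 3 lists after NURF301 knockdown. They are E(bx), Iswi, Caf1-55, Acf and the end site of Ino80, those with the higher mock percentiles above. Chrac-14 kept a CP190 peak in 1 of 3 lists, and Nurf-38, Chd1, Chd3 and brm in none. Counted per list, 6, 5 and 5 of the 10 genes had a CP190 peak, against 10, 10 and 10 in mock and 5, 8 and 9 in mock2. The groups overlap through mock2 alone, and the mock series, whose titles match this knockdown, does not overlap. Of all genes 45.8%, 38.2% and 37.8% had a CP190 peak, against 62.6% to 63.7% in mock and 45.2% to 57.2% in mock2. No site passed the test, at the 10 genes (0 of 9 tested) or in the genome, where 0% of 4776 tested sites were called by Fisher's exact test, the lowest adjusted p was 0.0536 and 2309 sites had an unadjusted p under 0.05. Of the genes with a CP190 mock site, 5 of 9 here kept a peak in every knockdown list, or 55.6%, against 58.4% of all genes. With the mock lists reduced to the length of the median knockdown list, the mean was 5.33 genes after knockdown and 4.83 in mock. No site at the 10 genes could then be tested. Without mock2 replicate 1, 3 of 7 tested sites at the 10 genes were called lost, beside 61.2% of the 3770 tested in the genome. Without any 1 of the 3 mock lists 1 of 3 was, beside 50% to 50.8%, and without mock2 replicate 2 it was 1 of 6, beside 36.5%.

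**Figure D3:**
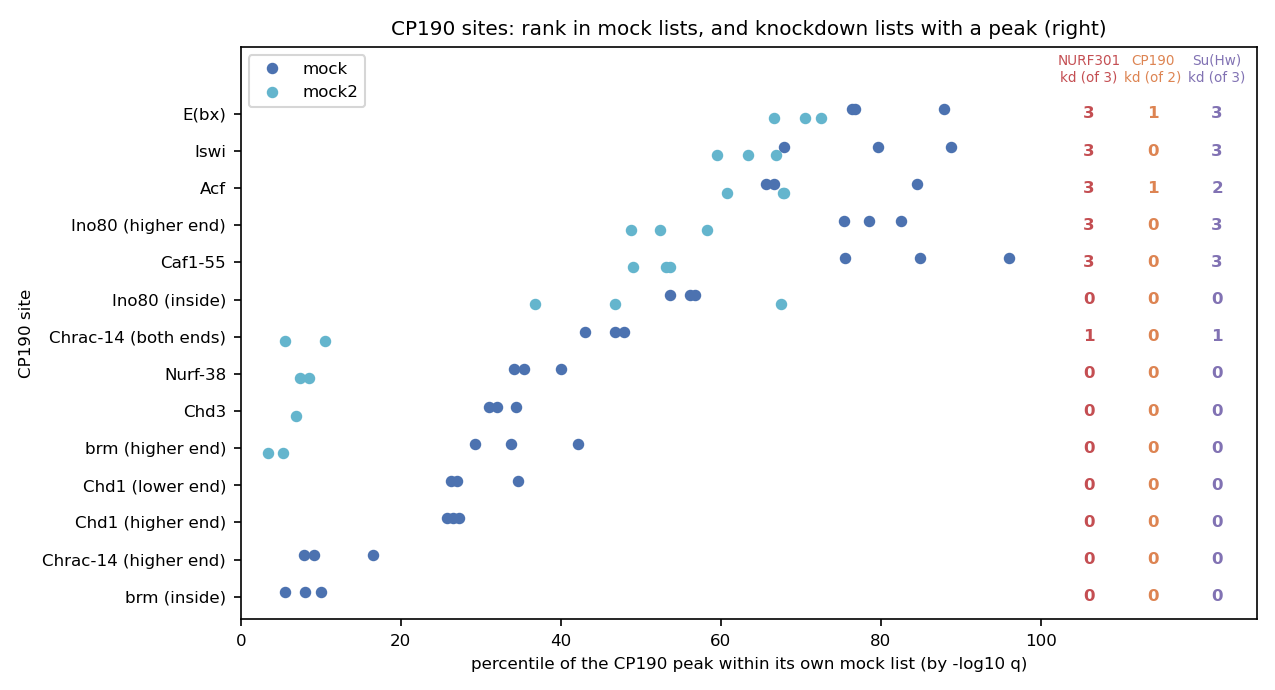
Points give the percentile of each CP190 peak within its own mock list (horizontal axis, by −log10 q) at the 14 CP190 sites, ordered by their median over the mock lists with a peak. The coloured numbers at the right count the lists with a peak after NURF301, CP190 and Su(Hw) knockdown. Sites with a median of at least 64.5 keep a peak in 3 of 3 NURF301 knockdown lists, and those below it in at most 1.

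CP190 knockdown left NURF301 at most of the 10 genes and CP190 at few. NURF301 peaks were called at 8 and 10 of them in the 2 lists after CP190 knockdown, against 10 in every mock list. Nurf-38 and Chd1 were without a peak in list 1. The 1 site that could be tested, at the lower end of Chd1, was not called (1 of 2 lists against 5 of 6, exact p = 0.464, adjusted p = 0.788), and 0% of 1098 tested sites in the genome were called by this test, although 352 had an unadjusted p under 0.05. With 2 lists against 6 the smallest exact p is 0.0357, and the lowest adjusted p in this comparison was 0.111. With the 3 alike mock lists counted as 1, the smallest exact p of 2 lists against 4 is 0.0667, and no site could be called. Of genes with a NURF301 mock site, 8 of these 10 and 69.2% of all genes kept a peak in both lists. The E(bx) site was the strongest NURF301 peak of the whole list in both, with fold enrichments of 29.2 and 25.4.

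CP190 itself was found at 1 gene in each list after CP190 knockdown, E(bx) in list 1 and Acf in list 2, against 5 to 10 genes in the mock lists. Of all genes 10.1% and 10.7% had a CP190 peak in these 2 lists, against 45.2% to 63.7% in the mock lists. All 4 sites tested were called lost, beside 90.0% of the tested CP190 sites of the genome: those of Iswi and Caf1-55 and both of Ino80 (0 of 2 lists against 6 of 6, exact p = 0.0357, adjusted p = 0.0397). The E(bx) and Acf sites, with a peak in 6 of 6 mock lists and 1 of 2 knockdown lists, could not be tested. Leaving out any 1 of the 6 mock lists ended the calls at Iswi, Caf1-55 and Ino80. It also ended every call of a loss in the genome, 0 of 4932 to 6761 tested sites. With fewer mock lists the smallest exact p is higher, so this does not single out the sites at the 10 genes. With mock lists as short as the median knockdown list, no site at the 10 genes could be tested. The mean was then 1 gene after knockdown and 0.333 in mock. Of the further remodeller genes 22 had a lost CP190 site, among them Arp5, Bap111, Bap170, Bap55 and Bap60 at the same adjusted p.

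After Su(Hw) knockdown NURF301 was at 7 of the 10 genes in each of the 3 lists, against 10 in every mock list, and the groups do not overlap. In the same knockdown lists 21.0%, 23.4% and 23.8% of all genes had a NURF301 peak, against 45.4% to 60.4% in the mock lists. The groups thus do not overlap for all genes either. E(bx), Iswi, Caf1-55, Chd3, Ino80 and brm had one in all 3 lists, Acf in 2 and Chd1 in 1. Nurf-38 and Chrac-14 had none, and of the 4 sites tested their 2 were called lost (0 of 3 lists against 6 of 6, exact p = 0.0119, adjusted p = 0.0418), beside 28.5% of the tested NURF301 sites of the genome. These calls ended when the 3 alike mock lists were counted as 1 (exact test of 3 lists against 4, adjusted p = 0.0517 for both), as did every call in the genome, where 1457 of 2638 tested sites had an unadjusted p under 0.05. Among genes with a NURF301 mock site, 6 of these 10 kept a peak in every knockdown list, 14 of the 29 further remodeller genes and 22.0% of all genes; whether the remodellers differ from other genes of equal peak strength was not tested. Further sites called lost were those at Tip60, kis, okr and polybromo, 4 of 26 tested (exact test, adjusted p = 0.0418). With mock lists reduced to the length of the median knockdown list the order of the groups turned, with a mean of 7 genes after knockdown and 5.5 in mock. Only 1 site at the 10 genes could then be tested, and it was not called lost.

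The E(bx) peak remained near the top of the NURF301 lists in Su(Hw) knockdown cells, at ranks 1, 2 and 1 with fold enrichments of 7.03, 5.39 and 9.84. The peak of brm, at percentiles of 93.8 to 98.7 in mock lists, stood at 70.8, 65.6 and 66.3 after Su(Hw) knockdown. Iswi stood at 52.7, 26.0 and 75.2, against 92.7 to 99.0. All 3 genes had a peak in every one of these lists; the places within them describe lists of different length and were not compared by a test.

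**Figure D4:**
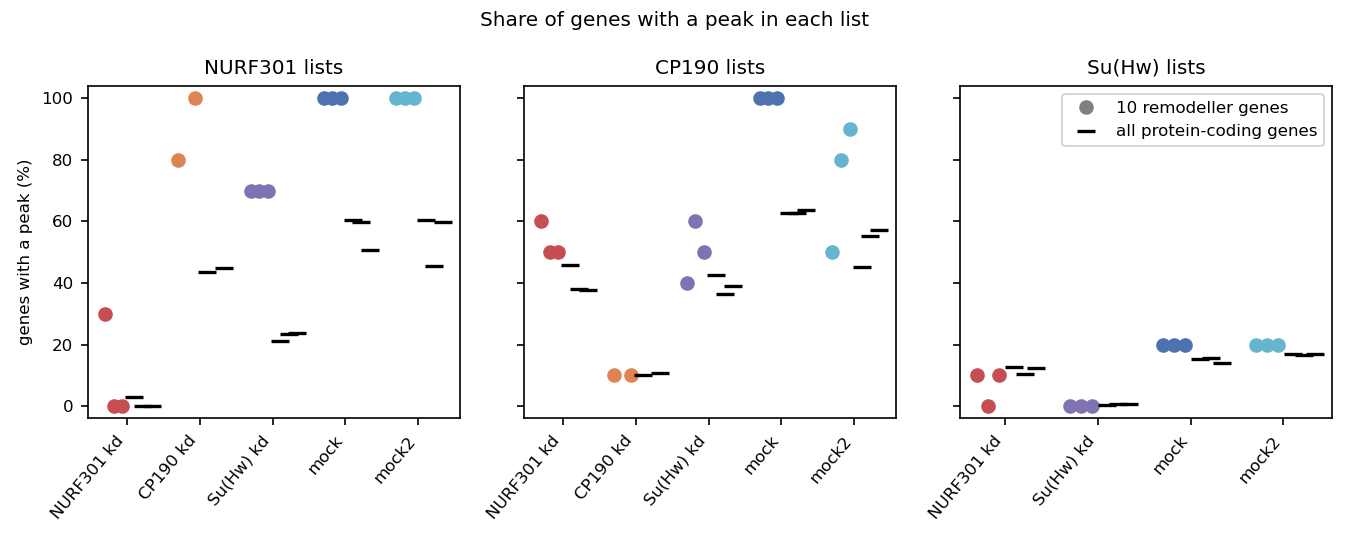
For NURF301, CP190 and Su(Hw) lists, dots give the percentage of the 10 remodeller genes with a peak in each list (vertical axis) and black dashes the percentage of all 13922 protein-coding genes. In Su(Hw) knockdown NURF301 lists the dots stand at 70% and the dashes between 21.0% and 23.8%. In NURF301 lists of mock cells the dots stand at 100% and the dashes between 45.4% and 60.4%.

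CP190 after Su(Hw) knockdown was at 4, 6 and 5 of the 10 genes, against 10, 10 and 10 in mock and 5, 8 and 9 in mock2, and the groups overlap. E(bx), Iswi, Caf1-55 and the end site of Ino80 had a CP190 peak in 3 of 3 lists, Acf in 2, Chrac-14 in 1, and Nurf-38, Chd1, Chd3 and brm in none. Of 9 sites tested 1 was called lost, the site inside Ino80 (0 of 3 against 6 of 6, exact p = 0.0119, adjusted p = 0.0319), beside 37.3% of the tested CP190 sites of the genome. Among the further genes it was called at Hel89B and tou, 2 of 15 tested sites, which are the 2 of that list with a Su(Hw) site. Genes with a CP190 mock site kept a peak in every knockdown list in 4 of 9 cases here, or 44.4%, against 59.6% of all genes. With mock lists reduced to the length of the median knockdown list, the mean was 5 genes with a CP190 peak after knockdown and 4.83 in mock. No site at the 10 genes could then be tested, while 899 of 2882 tested in the genome were called lost. Without mock2 replicate 1, 3 of 7 tested sites were called, beside 69.5% of the 4893 tested in the genome. The 3 knockdowns share their mock lists, so that their outcomes at a gene are not independent of each other.

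Su(Hw) binding at the 10 genes came to 2 sites, both on 3R. Neither had a Su(Hw) peak after Su(Hw) knockdown, against 6 of 6 mock lists at both (exact p = 0.0119, adjusted p = 0.0156), beside 76.2% of tested Su(Hw) sites called lost in the genome. With mock lists as short as the median knockdown list, no gene of the 10 had a Su(Hw) peak in any list of either group, so that neither site could be tested. After NURF301 knockdown the Acf site had a Su(Hw) peak in 2 of 3 lists and the Ino80 site in 0 of 3, against 6 of 6 mock lists at both. The loss at Ino80 was called (exact p = 0.0119, adjusted p = 0.0445), beside 26.7% of the tested Su(Hw) sites. That call ended when knockdown replicate 2 or 3 was left out, and when the mock lists were reduced to the length of the median knockdown list. So did every call of a loss in the genome, with 0 of 692, 0 of 776 and 0 of 708 tested sites lost.

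The Ino80 site lies inside the gene, at 3R:19392086-19392635, within 500 bp of CG18493 and 10802 to 10825 bp from the nearest annotated end of Ino80. CP190 had a peak there in all 6 mock lists, at 3R:19392062-19392670, and Mod(mdg4)67.2 in 2 of 3 lists. NURF301 had none in any list, and GFP none. Its CP190 fold enrichment was 14.6, 13.3 and 9.18 in mock and 8.06, 7.09 and 13.7 in mock2. No list of the NURF301, CP190 or Su(Hw) knockdown had a CP190 peak there, while the CP190 peak at the end of Ino80, at 3R:19402912-19403754, was called in 3 of 3 lists after NURF301 and after Su(Hw) knockdown and in 0 of 2 after CP190 knockdown. Within 1 gene, the CP190 site shared with Su(Hw) was without a peak in all 3 knockdowns, and the site shared with NURF301 was without one in the CP190 knockdown only. After NURF301 knockdown the absence at the inside site was not called by the exact test (lowest adjusted p 0.0536). The 2 sites also differed in strength: mock percentiles were 36.8 to 67.5 (median 54.9) inside and 48.7 to 82.5 (median 66.8) at the end. What part strength or partner protein has in the difference was not tested.

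Acf was the one gene of the 10 with peaks of all 5 antibodies. The Su(Hw) site, at 3R:31794190-31794878, had fold enrichments of 5.32 and 9.62 in the 2 NURF301 knockdown lists with a peak, against 10.8, 11.3 and 18.6 in mock and 4.82, 4.54 and 3.54 in mock2. Mod(mdg4)67.2 peaked at 3R:31794310-31794817 in 3 of 3 lists and GFP at 3R:31794244-31794818 in 2 of 3. The wider NURF301 and CP190 sites (CP190 at 3R:31793543-31795017) join a peak at the median Su(Hw) summit, base 31794566, with another near the lower annotated end of Acf, at −585 bp from that summit. Since the merged sites hide this, peaks within 150 bp of the Su(Hw) summit are given on their own, as a description with no test, because the peaks themselves prompted the count.

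At the Su(Hw) summit in Acf, NURF301 had a peak in 0 of 3 lists after Su(Hw) knockdown, against 6 of 6 mock lists. CP190 had one in 0 of 3 lists, against 6 of 6. The peaks that remained, in 2 of 3 lists for each protein, all lay near the gene end, on the far side from the Su(Hw) summit. After NURF301 knockdown the same position had a CP190 peak in 3 of 3 lists and a NURF301 peak in 1 of 3. After CP190 knockdown it had a NURF301 peak in 2 of 2 lists and a CP190 peak in 1 of 2.

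**Figure D5:**
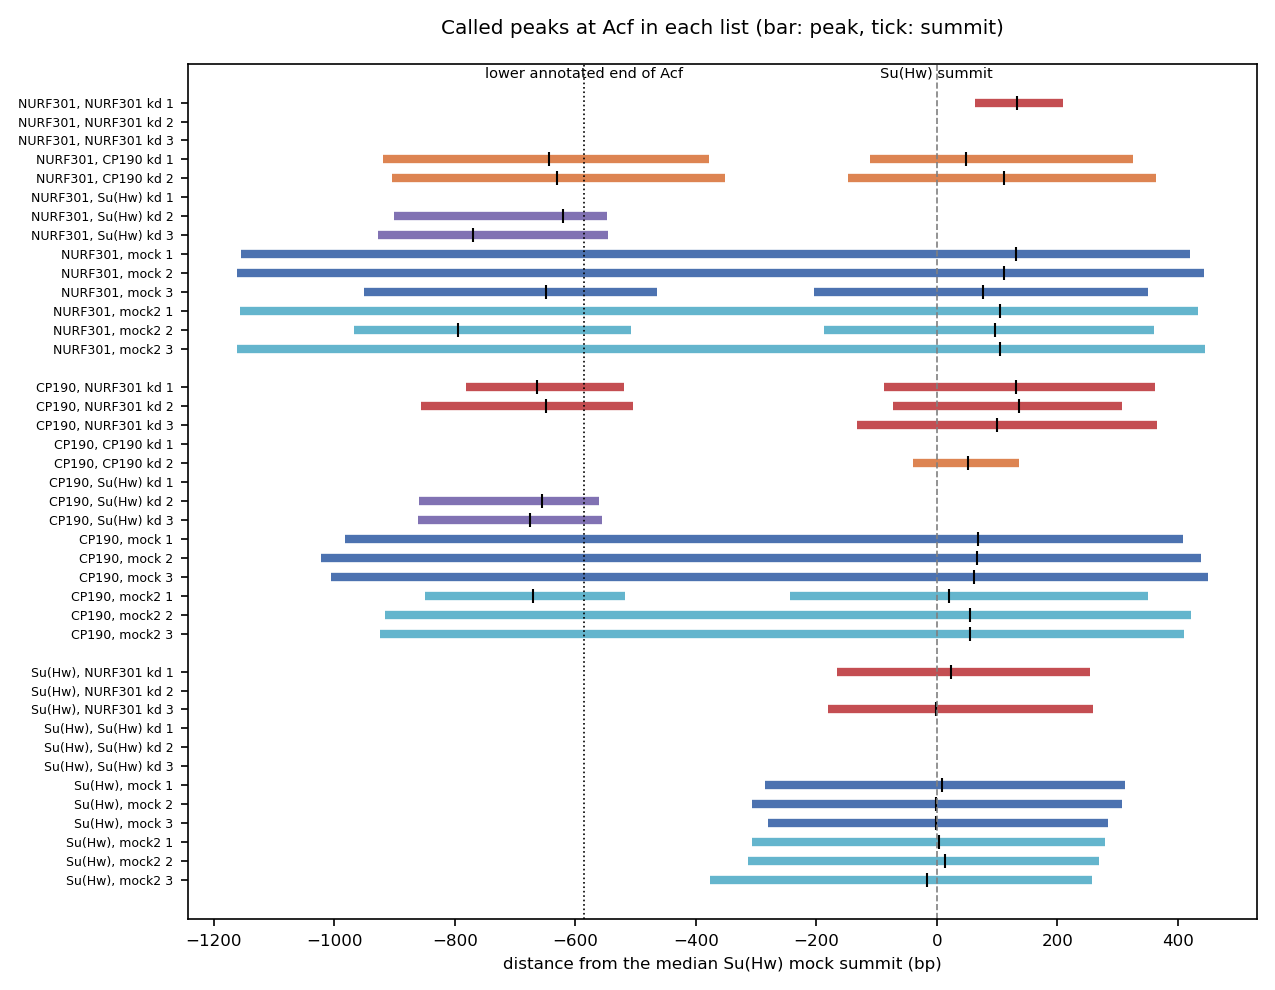
Bars are the called peaks of NURF301, CP190 and Su(Hw) at Acf, 1 row per list, and ticks their summits, along the distance in bp from the median Su(Hw) summit of the mock lists (dashed line). The dotted line marks the lower annotated end of the gene, at −585 bp. Su(Hw) knockdown lists have NURF301 and CP190 bars at the gene end in 2 of 3 lists each and no bar at the Su(Hw) summit, which every mock list covers.

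Across the 46 lists the presence of a peak at E(bx) was matched in all 46 by mthl14, which shares the site as its neighbour. Next came CG9588 and SCCRO4, with the same presence or absence as E(bx) in 45 lists each. Of the other remodeller genes, Caf1-55 matched E(bx) in 44 lists and Iswi in 43, ahead of Ino80 in 37, brm in 36, Chrac-14 and Chd3 in 35, Nurf-38 in 32, Chd1 in 31 and Acf in 30, and the median of all genes was 28. These shares describe 46 lists of different length and protein and were not tested.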

How the data were processed

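ChIP-seq reads had been processed by the submitters with MACS2 2.2.7.1, Bowtie2 2.4.2, Picard 2.25.2 and SAMtools 1.12, per the submitters' processing notes. Settings, control libraries and genome build are not given in the sources used here. The deposited lists, 1 per library, give each peak a score, which is 10 times the −log10 q cut to a whole number, a fold ratio over background, and −log10 p and −log10 q values. All are the authors' values and served only to rank, filter or describe peaks within a list. The 17 input samples were not used. The sequence names fit Release 6. RefSeq gene spans of that release, which matched 10 of 10 genes described and 29 of 29 further remodeller genes, gave names and neighbours only, on the 6 main chromosomes. Printed coordinates are those of the peaks, counted from 1.

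The 10 genes and the further list were chosen with earlier results of these data known. Peaks of an antibody that overlapped by at least 1 bp in any list were merged into sites. Presence was compared between the knockdown lists and the 6 pooled mock lists (mock and mock2), since 3 lists against 3 cannot give an exact p below 0.1. The smallest exact p is 0.0119 for 3 against 6 lists. By the way replicates are numbered, titles of the NURF301 and CP190 knockdowns match mock, and those of the Su(Hw) knockdown match mock2. All 10 genes are named. A site is described if at least 4 of 6 mock lists hold it (2 of 3 for Mod(mdg4)67.2 and GFP) or if it was called. Further genes are named where called, up to 5 per comparison by adjusted p and then symbol, leaving out NURF301 after its own knockdown. Alternatives changed the q threshold, the window, the peak extent, the mock lists, their length and the unit of the test. The test was checked on simulated presence data, drawn as independent lists without the differences in length and the alike mock lists found here. That check therefore does not give the rate of false calls in these data. Sequence motifs at the promoters, also planned, were not analysed here. Python 3.11.15, numpy 2.4.6, pandas 2.3.3, scipy 1.17.1 and matplotlib 3.10.9 were used.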

Additional observations from a re-analysis of the deposited data

Results flagged for a closer look

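Over the 6 mock lists, 3 of 19 gene sites tested had a list far from the others by Dixon's criterion, which chance meets in about 1 of 20 groups. The CP190 site at Acf stood at a percentile of 84.5 in mock replicate 3, against 60.7 to 67.9 in the other 5 mock lists. The stronger NURF301 site of Chrac-14 stood at 16 in mock2 replicate 2, against 55.6 to 77.7. The NURF301 site of Ino80 stood at 48.7 in the same list, against 67.6 to 76.6. This mock2 list is the shortest of the 6 NURF301 mock lists, with 4612 peaks, and what part its length has in these values was not tested.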

How the results depend on the processing

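Shorter mock lists changed most. With each mock list reduced to the length of the median knockdown list, the knockdown minus mock difference in genes with a peak turned to 0.5 (NURF301 knockdown, NURF301), 0.5 (NURF301 knockdown, CP190), 0.667 (CP190 knockdown, CP190), 1.5 (Su(Hw) knockdown, NURF301) and 0.167 (Su(Hw) knockdown, CP190), and moved to 0 for Su(Hw) after its knockdown, while 0 sites were called lost; at most 1 site at the 10 genes could then be tested in a comparison, so these counts do not show that the losses ended. The cause of the turn was not tested. The main differences were -9, -3.33, -7.67, -3, -3.67 and -2. A −log10 q threshold of 20 gave -6.17 for CP190 after NURF301 knockdown with 1 site lost, -2.67 for NURF301 after CP190 knockdown, -7 for NURF301 after Su(Hw) knockdown, and 2 CP190 sites lost after Su(Hw) knockdown. Summits with 150 bp either side also gave 2 there, presence per gene gave 0, and gene spans without flanks gave -3.33 for NURF301 after Su(Hw) knockdown. At the 4523 Su(Hw) summit positions alone, chosen after the peaks at Acf were seen and so no independent test of them, the numbers lost were 0 (NURF301) and 1 (CP190) after NURF301 knockdown, 1 (CP190) after CP190 knockdown, and 1 (NURF301) and 2 (CP190) after Su(Hw) knockdown. No other position at the 10 genes could be tested. Of all tested positions 26.9%, 34.8%, 93.5%, 25.4% and 61.3% were lost, in the same order. With the 3 alike NURF301 mock lists counted as 1, also chosen after seeing the data, 0 NURF301 sites were called lost after Su(Hw) knockdown, against 2, and 7 after NURF301 knockdown. A value was taken as near the reported one when a count of sites was within 1.5 times of it, or a difference in genes had not changed sign and had moved by less than the larger SD of the 2 groups. Of 125 values recomputed under the other settings that leave out no single list, 105 were near. The Su(Hw) summit positions and the alike lists counted as 1, both chosen after seeing the data, are not among the 125.

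Leaving out 1 list at a time, 142 of 160 values were near, among them NURF301 after CP190 knockdown, which gave 0 or -2 without 1 or the other knockdown list, against -1. Sites lost ranged over 7 to 10 (NURF301), 0 to 3 (CP190) and 0 to 1 (Su(Hw)) after NURF301 knockdown, 0 (NURF301) and 0 (CP190) after CP190 knockdown, and 2 to 3 (NURF301), 1 to 3 (CP190) and 2 (Su(Hw)) after Su(Hw) knockdown. For CP190 after its own knockdown, the calls of loss in the whole genome ended as well. Differences in genes ranged from -10 to -8.5, -4.07 to -3.07, -1.5 to -1, -2 to 0, -8.4 to -7.4, -3 to -3, -4.4 to -3.17 and -2 to -2 in the same order. In mock cells the genes with a site were 10 (NURF301), 8 to 9 (CP190), 2 (Su(Hw)), 1 to 2 (Mod(mdg4)67.2) and 0 to 1 (GFP), ranges that were added after seeing the data. Leaving out 1 of the 2 CP190 knockdown lists, or using the mock series with matching titles, left no site able to reach the threshold.

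Replicate numbers did not pair the lists, with correlations of −0.102 to 0.107 between same-numbered lists, although all 3 Su(Hw) lists of the NURF301 knockdown correlated best with their own number. With the replicate block the differences were -9, -4.67, -1.33, -1, -9, -3, -2.33 and -2 in the order above. In 2 Su(Hw) knockdown NURF301 lists the peak names carry other numbers than the titles.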
